A study of Homo sapiens with 83 samples.

Results

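The comparison covered 42 of the 83 libraries of the series, namely all those in which N-MYC-ER was held inactive (MYC-OFF): 28 from SHEP N-MYC-ER and 14 from SKNAS N-MYC-ER. SHEP and SKNAS are established human neuroblastoma cell lines, and both had been engineered to express N-MYC-ER constantly, a fusion of N-MYC to a part of the estrogen receptor that keeps the protein inactive until 4-hydroxytamoxifen (4OHT) is given. MYC-OFF cells had received ethanol, the vehicle of 4OHT, for 24 h, and all cells were then given dexamethasone, a glucocorticoid that sets the clocks of cultured cells to a common phase. RNA was taken every 4 h from 24 h to 76 h after dexamethasone, and circadian time (CT) counts those hours. SHEP had 2 such series of 14 CTs and SKNAS had 1, so the cell line cannot be told apart from the experiment that produced the SKNAS series. The other 41 libraries were from the same lines given 4OHT (MYC-ON), 28 from SHEP and 13 from SKNAS, and were used here only to see whether the line difference was also present in them.

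Neuroblastoma arises from sympathoadrenal cells of the neural crest, and its cells are found in 2 main states with separate sets of core transcription factors. Adrenergic cells express PHOX2A, HAND2, GATA3 and ISL1 together with enzymes and secretory proteins of sympathetic neurons, while mesenchymal cells express PRRX1, RUNX and AP-1 family factors, NOTCH receptors and YAP1, and adhere and migrate like fibroblasts. SHEP is the substrate-adherent subclone of SK-N-SH and is commonly used as a mesenchymal model, and SK-N-AS has features of both states.

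Values are TPM, a gene's share of all transcripts corrected for its length, made comparable among the libraries by 1 rescaling factor each, and a difference is SHEP minus SKNAS after taking log2(TPM + 1), so that changes of genes near 0 come out too small. A gene was called when its limma p, adjusted by the Benjamini-Hochberg method, was no higher than 0.05 and its difference at least 0.66. That difference is 1.58-fold on this scale. A gene said not to pass the test failed 1 or both parts of this rule, so a difference smaller than 0.66 may still have a low adjusted p. Of 15993 genes with a mean of at least 1 TPM in either line, 4371 were higher in SHEP (27.3% of those tested) and 3960 were higher in SKNAS (24.8%), together 52.1%. These shares of all tested genes are the background for every list count below. A gene near 0 in 1 line passed the filter through the other line alone, so its direction in a list count follows from the filter. The median absolute difference between the lines was 0.70, against 0.09 between the 2 SHEP series. Between those series 85 genes passed the same rule (0.531% of those tested). In 3174 genes (19.8%) every SHEP library lay above every SKNAS library, and in 2317 genes (14.5%) every SKNAS library lay above every SHEP library. Differences of at least 32-fold on the log2(TPM + 1) scale were found for 87 genes higher in SHEP and 101 genes higher in SKNAS. The p-values rest on the spread over CTs of 3 series. With the mean of each series as 1 replicate, where the lone SKNAS series is assumed to vary as the SHEP series do, 4292 and 3931 genes were called.

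The read depth of each library is unknown here, because TPM are scaled to a fixed total. SHEP libraries had a median expression between 3.93 and 4.17 on the log2(TPM + 1) scale and 21726 to 22839 genes above 0. Of the 14 SKNAS libraries, 4 stood apart from the other 10: those of CT52, CT56, CT64 and CT72 had medians of 2.97 to 3.62 and 16241 to 20854 genes above 0, whereas the other 10 had medians of 3.97 to 4.38 and 21327 to 21971 genes above 0. Without these 4 libraries 4002 genes were higher in SHEP and 3557 in SKNAS, and list counts without them are given where the split turned or a count moved by more than 1.5 times.

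**Figure D1:**
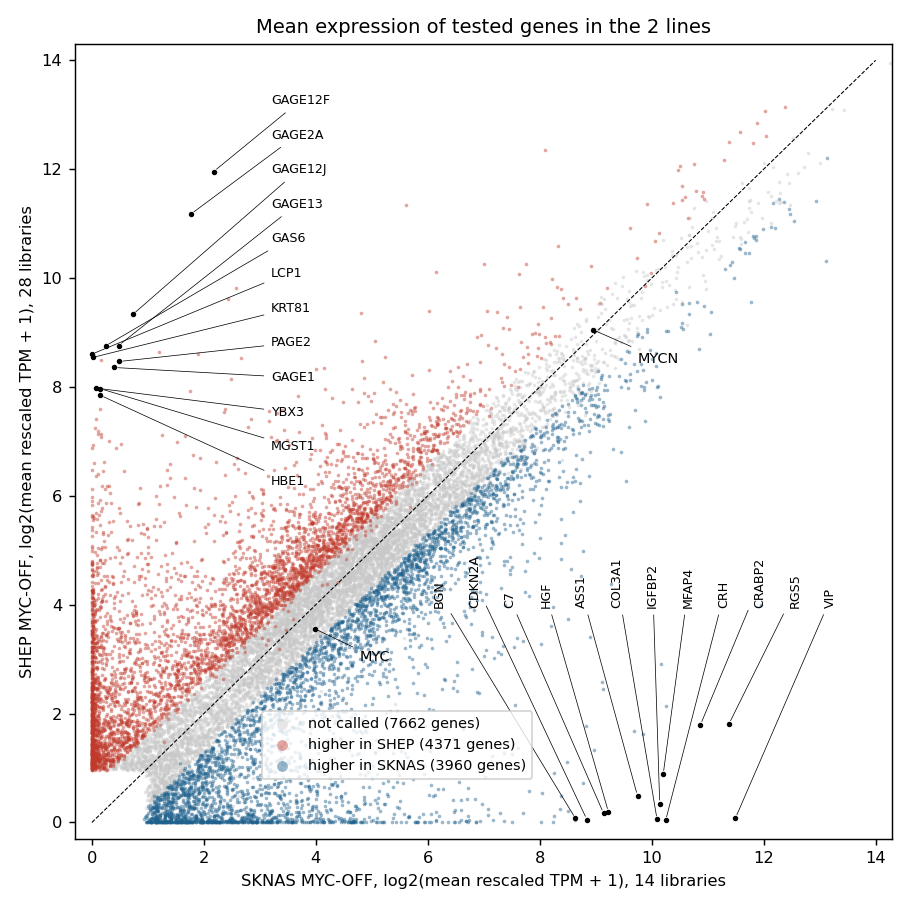
Mean expression of each tested gene in SKNAS MYC-OFF (x axis, 14 libraries) and SHEP MYC-OFF (y axis, 28 libraries), both as log2(mean rescaled TPM + 1). Genes higher in SHEP (4371) are red, genes higher in SKNAS (3960) are blue and genes not called are grey. Black points along the axes mark the 12 largest differences in each direction among called genes without overlap between the lines. Black points near the diagonal mark MYCN and MYC.

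Neither MYCN nor MYC passed the test between the lines while N-MYC-ER was inactive. MYCN, whose TPM includes any reads of the fusion that map to it, ranged from 384 to 638 TPM (median 530.1) over SHEP libraries and from 55.4 to 840.2 TPM (median 562) over SKNAS libraries, and its difference of 0.49 (SE 0.25, adjusted p = 0.069, limma) did not pass the test. The sign of the MYCN difference changed without the low-median SKNAS libraries, to -0.34. The authors report that SHEP do not express N-MYC of their own. Their qPCR found more MYCN RNA in SKNAS N-MYC-ER than in SHEP N-MYC-ER. In these TPM that direction was seen without the low-median libraries, but MYCN was not called there. The authors report different SKNAS N-MYC-ER lineages in their time series and do not say which the qPCR used. MYC was low in both lines, with 7.09 to 16.6 TPM (median 10.7) in SHEP and 7.76 to 20.5 TPM (median 15.01) in SKNAS (difference -0.42, SE 0.08), and MYCL did not reach the 1 TPM filter. Of 11 tested genes of the MYC network, 1 was higher in SHEP (MGA, a MAX dimerization partner) and 3 were higher in SKNAS (MXD1, MXD3 and MXD4, antagonists of MYC at shared sites), with a list median of -0.19 against 0.01 over all genes tested. MGA lost its call without the low-median libraries (difference 0.56). MAX, the obligate partner of MYC proteins, had medians of 96.2 TPM in SHEP and 85.2 TPM in SKNAS.

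The largest differences in favour of SKNAS were in neuropeptides, secreted matrix proteins and a cell cycle inhibitor. VIP, the vasoactive intestinal peptide of autonomic neurons, ranged from 2146 to 5405 TPM (median 2529) in SKNAS and from 0 to 0.206 TPM (median 0.0493) in SHEP (difference -11.36, SE 0.08, adjusted p = 3.9e-41). CRH, the corticotropin-releasing hormone, ranged from 694 to 2209 TPM (median 970.2) in SKNAS and reached at most 0.181 TPM in SHEP. COL3A1, a fibrillar collagen of loose connective tissue, ranged from 467 to 1455 TPM (median 1272) in SKNAS and did not exceed 0.288 TPM in SHEP. The 12 largest were picked among called genes whose libraries did not overlap between the lines, so the lack of overlap was a condition. The others among the 12 largest were IGFBP2, a binding protein of insulin-like growth factors (difference -9.52), RGS5, a regulator of G protein signalling known from pericytes (-9.47), MFAP4, a microfibril-associated glycoprotein (-9.29), ASS1, the argininosuccinate synthase of arginine synthesis (-9.20), CRABP2, a carrier of retinoic acid (-9.04), HGF, the ligand of MET (-9.01), the complement component C7 (-8.92), CDKN2A (-8.69) and the proteoglycan BGN (-8.53). Over these 12 genes the SHEP medians ran from 0 to 2.59 TPM and the SKNAS medians from 367 to 2948 TPM.

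Among the 12 largest differences in favour of SHEP, picked by the same rule, 6 were germ cell genes of the X chromosome. GAGE12F, GAGE2A, GAGE12J, GAGE13, GAGE1 and PAGE2 had SHEP medians of 333 to 3958 TPM and SKNAS medians of 0 to 2.49 TPM. The GAGE genes are near-identical copies that share reads, so how their TPM are divided among the copies is uncertain. The remaining 6 were single genes of other kinds. LCP1, the actin-bundling protein L-plastin, known from white blood cells and many cancer lines, ranged from 330.3 to 503 TPM (median 382) in SHEP and was listed at 0 in all 14 SKNAS libraries (difference 8.60, SE 0.04, adjusted p = 4.8e-46). KRT81, a hair keratin, ranged from 285 to 549 TPM (median 361) in SHEP and did not exceed 0.044 TPM in SKNAS. GAS6, the ligand of the receptor kinase AXL, ranged from 305 to 529.6 TPM (median 439.7) in SHEP and from 0 to 0.403 TPM (median 0.171) in SKNAS. YBX3, a cold-shock domain RNA-binding protein, differed by 7.91, MGST1, a microsomal glutathione transferase, by 7.83 and HBE1, the embryonic beta-type globin, by 7.71, and none of the 3 exceeded 1 TPM in a SKNAS library.

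Adrenergic core factors were higher in SKNAS for 17 of the 22 tested and higher in SHEP for 3, against 24.8% and 27.3% of all genes, and the list median was -2.92 against 0.01. PHOX2A, a homeodomain factor of noradrenergic neurons, ranged from 159.5 to 446 TPM (median 238) in SKNAS and was at most 0.0414 TPM in SHEP (difference -7.95, SE 0.08). HAND1, a basic helix-loop-helix factor of the sympathetic lineage, ranged from 72.3 to 140.4 TPM (median 102) in SKNAS and was at most 0.0591 TPM in SHEP. INSM2, a zinc-finger factor related to INSM1, ranged from 51.8 to 119.5 TPM (median 91.1) in SKNAS and reached 0.0646 TPM in SHEP. These 3 genes were near-silent in SHEP and separated the lines in every library.

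Other adrenergic factors were expressed in both lines at different levels. HAND2 ranged from 10.7 to 20.6 TPM (median 14.5) in SHEP and from 126 to 206 TPM (median 166) in SKNAS (difference -3.38, SE 0.06). GATA2 and GATA3, zinc-finger factors of sympathetic neuron development, had SHEP medians of 15.2 and 16.5 TPM and SKNAS medians of 115 and 63.4 TPM. TBX2, a T-box factor, had medians of 8.94 TPM in SHEP and 217 TPM in SKNAS. The ranges of these 4 genes did not overlap. ISL1, a LIM homeodomain factor, had a median of 29.3 TPM in SKNAS and 0.587 TPM in SHEP, HEY1, a Notch effector, 58.02 and 0.374 TPM, and SOX11, a factor of immature neurons, 3.61 TPM against a listing at 0 in all 28 SHEP libraries. Further members of the 17 had differences of -3.38 for EYA1, -3.36 for KLF13, -3.17 for DACH1, -1.90 for TLX2, -1.04 for INSM1 and -1.01 for SOX4.

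TFAP2B, an AP-2 family factor of sympathetic development, was listed at 0 in both lines and was not tested. In the opposite direction SIX3, a homeodomain factor of the forebrain and eye, had medians of 9.17 TPM in SHEP and 0.385 TPM in SKNAS, SATB1, a chromatin organizer, 5.72 and 0.0105 TPM, and KLF7, a zinc-finger factor of sensory neurons, 10.55 and 5.49 TPM. PBX3 and TBX3 did not pass the test, with differences of -0.15 (SE 0.06) and -0.17 (SE 0.09).

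Mesenchymal core factors were divided between the lines. Of 31 tested, 15 were higher in SHEP and 6 in SKNAS, with a median of 0.62. NOTCH2, a receptor of the Notch pathway, ranged from 75.9 to 197 TPM (median 135) in SHEP and from 0 to 0.414 TPM (median 0.0355) in SKNAS (difference 6.97, SE 0.14, adjusted p = 3.7e-29). RUNX2, the master regulator of bone formation, ranged from 24.7 to 37.9 TPM (median 32.7) in SHEP and from 0.652 to 1.53 TPM (median 0.985) in SKNAS. GLIS3, a Krüppel-like zinc-finger factor, had medians of 17.2 TPM in SHEP and 0.0800 TPM in SKNAS. SOX9, a factor of cartilage and migrating neural crest, had medians of 23.2 and 1.94 TPM in the same order. No library overlapped between the lines for these 4 genes. The AP-1 subunits FOSL1 and FOSL2 had SHEP medians of 99.6 and 97.2 TPM and SKNAS medians of 21.03 and 17.8 TPM, RUNX1 differed by 2.08, the TGF-beta effector SMAD3 by 2.05, the Hippo pathway effector YAP1 by 1.60 and the epithelial-mesenchymal transition factor SNAI2 by 1.09, all higher in SHEP. SIX4, IRF1, STAT3 and EGR3 were also among the 15, with differences from 0.90 for STAT3 to 1.92 for SIX4. STAT3 lost its call without the low-median libraries (difference 0.58).

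The 6 mesenchymal factors higher in SKNAS included the one most often used to define the state. PRRX1, a paired-related homeodomain factor that drives a mesenchymal state when expressed in adrenergic cells, ranged from 32.7 to 88.8 TPM (median 65.8) in SKNAS and from 0.0999 to 1.71 TPM (median 0.468) in SHEP (difference -5.37, SE 0.12, adjusted p = 1.6e-27). AEBP1, a repressor with a secreted form that binds collagen, had medians of 31.4 TPM in SKNAS and 0.700 TPM in SHEP. ID1, an inhibitor of basic helix-loop-helix factors, had medians of 389.7 and 21.2 TPM in the same order. NOTCH3 differed by -2.21, TWIST1, a mesoderm and neural crest factor, by -1.55 and TBX18, a T-box factor of pericytes, by -1.16. The 10 factors not called had differences between -0.45 (TWIST2) and 0.62 (ZNF217), with WWTR1, the paralog of YAP1, at 0.33 (SE 0.06). FOSL1, SNAI2, YAP1 and TWIST1 had medians above 5 TPM in both lines.

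**Figure D2:**
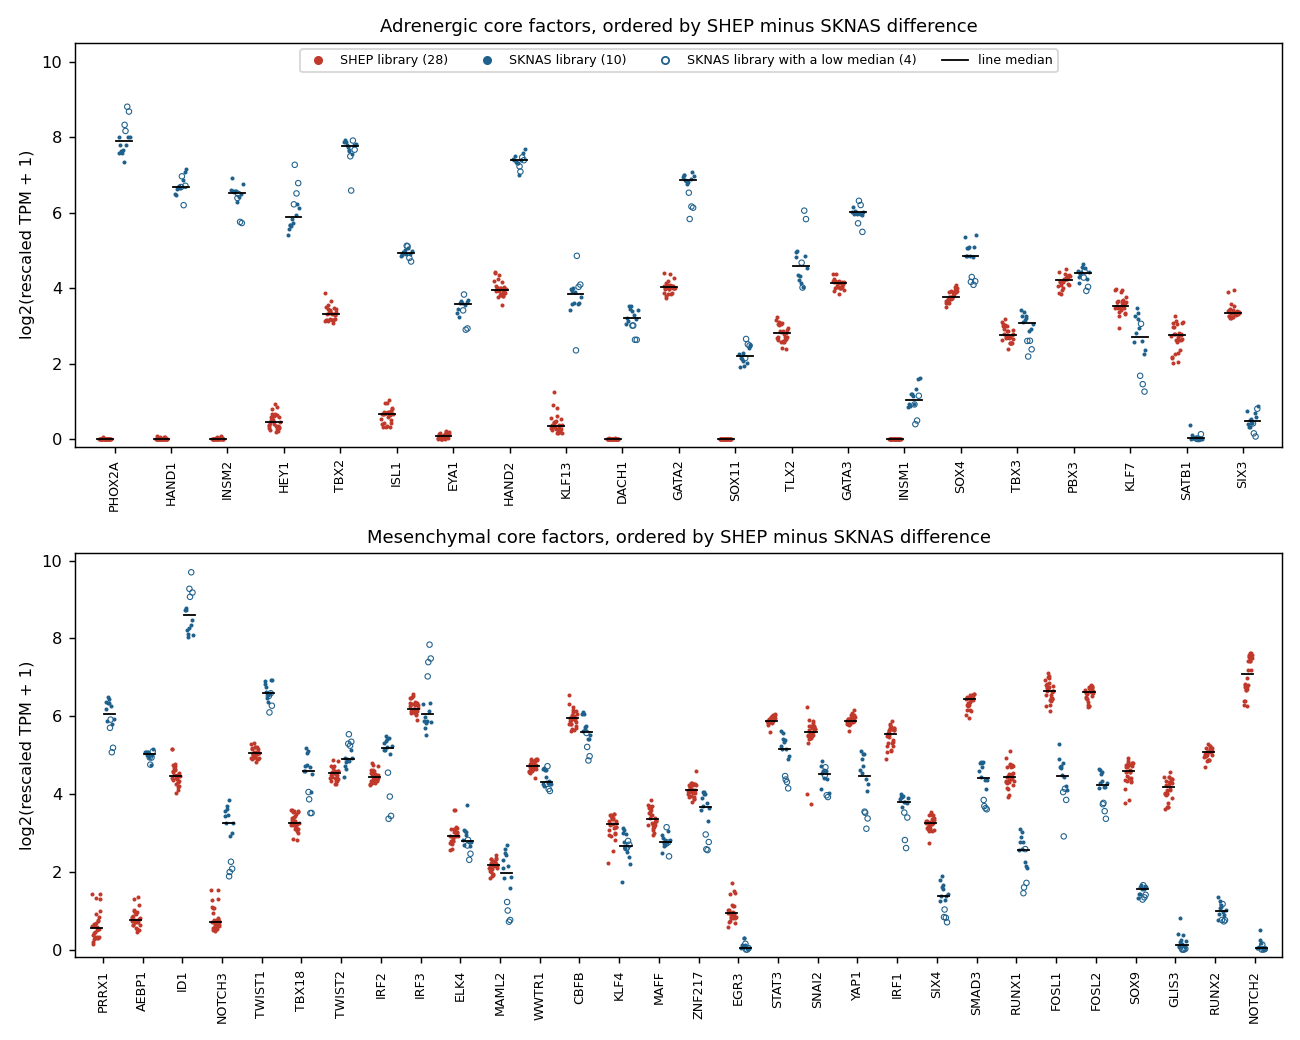
Expression of tested adrenergic (top) and mesenchymal core factors (bottom) in each MYC-OFF library, as log2(rescaled TPM + 1), with genes ordered by the SHEP minus SKNAS difference. Red points are the 28 SHEP libraries, filled blue points the 10 SKNAS libraries of ordinary median, open blue points the 4 with a low median, and black bars the line medians; PHOX2A, HAND1 and INSM2 lie at 0 in SHEP and NOTCH2 lies near 0 in SKNAS.

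Genes of catecholamine synthesis and storage were higher in SKNAS for 9 of 13 tested and in SHEP for 2, with a median of -1.65. SCG2, a secretogranin of dense-core vesicles, ranged from 928 to 1329 TPM (median 1155) in SKNAS and from 3.28 to 9.43 TPM (median 6.64) in SHEP. PNMT, which converts noradrenaline to adrenaline, ranged from 4.41 to 104 TPM (median 21.8) in SKNAS and was at most 0.127 TPM in SHEP. DDC, the aromatic amino acid decarboxylase, had medians of 11.8 TPM in SKNAS and 0 TPM in SHEP, and CYB561, the vesicle cytochrome that regenerates ascorbate, 98.5 and 13.6 TPM. The enzymes that start and complete noradrenaline synthesis were below the filter in both lines: TH, the tyrosine hydroxylase, had means of 0.853 TPM in SKNAS and 0.054 TPM in SHEP, and DBH, the dopamine beta-hydroxylase, 0.826 and 0.032 TPM. The granin CHGB was among the members higher in SHEP, with medians of 1.88 TPM in SHEP and 0.576 TPM in SKNAS.

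Neuronal markers were higher in SKNAS for 16 of 21 tested and in SHEP for 3, with a median of -1.38. VGF, a neurosecretory peptide precursor, ranged from 461 to 1490.3 TPM (median 822) in SKNAS and from 0.781 to 6.51 TPM (median 1.52) in SHEP. L1CAM, an adhesion molecule of axons, ranged from 48.5 to 205 TPM (median 169) in SKNAS and from 3.99 to 9.70 TPM (median 7.09) in SHEP, and STMN3, a microtubule regulator of neurons, had medians of 45.9 and 0.788 TPM. NEFM, the medium neurofilament, had medians of 18.9 TPM in SKNAS and 0.414 TPM in SHEP, whereas its partner NEFL, the light neurofilament, ran the other way with 14.6 TPM in SKNAS and 318 TPM in SHEP. UCHL1, a neuronal ubiquitin hydrolase, and TUBB3, a beta tubulin of neurons, were also higher in SHEP, by 1.45 and 1.15. DCX, ELAVL4 and STMN2, which mark young neurons, had means under 0.05 TPM in both lines.

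Schwann cell and neural crest markers gave no single direction. Of 20, 9 were tested, with 5 higher in SHEP and 4 in SKNAS. ETS1, a neural crest factor, had medians of 65.3 TPM in SHEP and 8.10 TPM in SKNAS, and MITF, the melanocyte factor, 22.1 and 4.29 TPM. PAX3, a neural crest factor, had a median of 3.67 TPM in SHEP and was listed at 0 in every SKNAS library. NGFR, the low-affinity neurotrophin receptor, ranged from 2.89 to 37.5 TPM (median 23.8) in SKNAS and from 0 to 0.233 TPM (median 0.0398) in SHEP, and EDNRB, an endothelin receptor of migrating neural crest, had medians of 2.12 and 0 TPM. The defining Schwann cell precursor genes SOX10 and S100B had means under 1 TPM in both lines.

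Of 14 markers of blood and endothelial cells, 12 did not reach the 1 TPM filter. The exceptions were both higher in SKNAS. PTPRC, the leukocyte phosphatase CD45, was listed at 0 in all 28 SHEP libraries and ranged from 24.5 to 108 TPM (median 87.6) in SKNAS (difference -6.09, SE 0.14, adjusted p = 9.2e-28). CD68, a lysosomal protein abundant in macrophages, had medians of 131 TPM in SKNAS and 43.1 TPM in SHEP. SPI1, CD14, CD3E and LYZ, which mark myeloid and lymphoid cells, had means of at most 0.509 TPM in SKNAS. In bulk RNA, more cells that express a gene and more of its RNA per cell cannot be told apart. Of 13 tested epithelial and EMT genes, 6 were higher in SHEP, among them the simple epithelial keratins KRT7 (difference 3.47) and KRT8 (1.25), and 5 in SKNAS, led by CLDN3 (-2.41), KRT19 (-2.20), TCF4 (-2.17) and SNAI1 (-1.19). EPCAM and CDH1 had means under 1 TPM in both lines, and ZEB1 and ZEB2, repressors of CDH1, did not pass the test at -0.04 and 0.20.

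HOX genes, the homeodomain factors that specify position along the body axis, gave a one-sided difference. Of 29 tested, 25 were higher in SHEP and 2 in SKNAS, the list median was 3.09, and 14 were detected in SHEP and near-silent in SKNAS, meaning a mean of at least 5 TPM in the former and under 0.5 TPM in the latter. That class held 429 genes, 2.68% of those tested. All 7 tested HOXA genes (chromosome 7) and all 9 tested HOXB genes (GRCh38 chromosome 17, positions 48540894 to 48728750) were higher in SHEP with no overlap. SHEP means ran from 3.06 to 116.9 TPM over HOXA and 4.80 to 47.7 TPM over HOXB, and SKNAS means were at most 0.0884 and 0.317 TPM. These genes passed the 1 TPM filter through SHEP alone, so the direction of these counts follows from the filter. The lists held 11 HOXA and 10 HOXB genes, and those not tested had means under 1 TPM in both lines. HOXA3 (chromosome 7, 27106184 to 27152583) ranged from 91.8 to 135 TPM (median 119) in SHEP and was at most 0.0181 TPM in SKNAS (difference 6.87, SE 0.04). HOXB9 ranged from 39.1 to 52.9 TPM (median 47.8) in SHEP and was listed at 0 in all SKNAS libraries. HOXA5 and HOXB2 differed by 5.53 and 5.22.

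The other HOX clusters were less divided. All 7 tested HOXC genes (chromosome 12) were higher in SHEP, but 3 overlapped between the lines, and SKNAS means reached 5.36 TPM. In the HOXD cluster (chromosome 2) 2 of 6 tested genes were higher in SHEP and 2 in SKNAS: HOXD8 ranged from 10.3 to 43.9 TPM (median 17.3) in SKNAS and from 5.16 to 8.88 TPM (median 7.21) in SHEP, and HOXD4 differed by -1.01. HOXD9 and HOXD3 did not pass the test at -0.34 and -0.26. SKNAS expressed HOXC and HOXD genes with HOXA and HOXB at or near 0, while SHEP expressed genes of all 4 clusters.

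**Figure D3:**
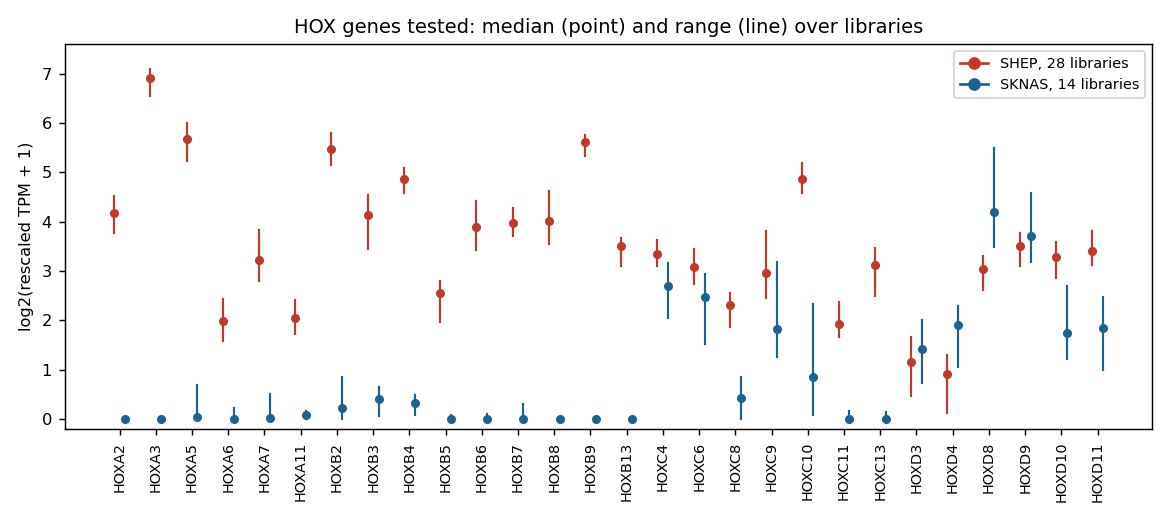
Expression of tested HOX genes, ordered by cluster and number, as log2(rescaled TPM + 1), with the median as a point and the lowest to highest library as a line. The HOXA and HOXB genes drawn lie at or near 0 in the 14 SKNAS libraries (blue) and well above in the 28 SHEP libraries (red), and of the 6 HOXD genes 2 are higher in SHEP, 2 are higher in SKNAS and 2 were not called.

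Inhibitors of cyclin-dependent kinases gave the largest differences of the cell cycle list. CDKN2A, which encodes the p16 and p14ARF inhibitors on chromosome 9 (GRCh38, 21967752 to 21995301), ranged from 282 to 778 TPM (median 367) in SKNAS and was at most 0.374 TPM in SHEP, and its neighbour CDKN2B, which encodes p15, ranged from 8.32 to 17.6 TPM (median 14.4) in SKNAS and was listed at 0 in all SHEP libraries. MTAP, next to them on the same chromosome and named for its position after its values were seen, was expressed in both lines at medians of 28.5 TPM in SHEP and 23.9 TPM in SKNAS. CDKN2C, the p18 inhibitor, and CDKN1C, the p57 inhibitor, were also higher in SKNAS, by -2.01 and -2.52. CDKN1A, the p21 inhibitor and p53 target, ran the other way, from 488 to 757 TPM (median 655) in SHEP and 11.2 to 45.1 TPM (median 26.3) in SKNAS, a 24.3-fold ratio of means. Of 41 tested cell cycle genes, 16 were higher in SKNAS and 5 in SHEP, with a median of -0.51, and without the low-median libraries the counts were 17 and 3 and the median -0.48. MKI67, the Ki-67 proliferation marker, had medians of 17.8 TPM in SHEP and 18.4 TPM in SKNAS and did not pass the test.

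Genes of the p53 pathway were higher in SHEP for 24 of 30 and higher in SKNAS for 1, with a median of 1.39. GDF15, a stress-induced cytokine, ranged from 263 to 529 TPM (median 393) in SHEP and from 0.0703 to 2.79 TPM (median 1.13) in SKNAS (difference 7.50, SE 0.09). PHLDA3, an AKT inhibitor induced by p53, had medians of 94.03 and 4.86 TPM, and EDA2R, a receptor of ectodysplasin and p53 target, had a median of 11.1 TPM in SHEP and was listed at 0 in every SKNAS library. MDM4, an inhibitor of p53, was the member higher in SKNAS (-0.83), and TRIAP1, BTG2 and PLK3 did not pass the test at -0.22, -0.47 and 0.46.

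Receptor tyrosine kinases and their ligands divided in ways that separated some pairs. Of 33 tested receptors 14 were higher in SHEP (42.4%) and 8 in SKNAS (24.2%), against 27.3% and 24.8% of all genes. Of 38 tested growth factors and ligands 19 were higher in SHEP and 15 in SKNAS. RET, the receptor of GDNF family ligands in sympathetic neurons, ranged from 49.6 to 159.7 TPM (median 81.7) in SKNAS and was at most 0.112 TPM in SHEP. FLT1, a VEGF receptor, had medians of 23.2 TPM in SKNAS and 0.00838 TPM in SHEP. EPHB2, an ephrin receptor, ran the other way from 71.5 to 95.95 TPM (median 87.995) in SHEP and 0.491 to 2.65 TPM (median 1.497) in SKNAS, and ROS1, an orphan kinase, had a SHEP median of 25.4 TPM and was listed at 0 in SKNAS. MET, the HGF receptor, ranged from 129.6 to 191 TPM (median 157) in SHEP and from 10.8 to 24.1 TPM (median 16.1) in SKNAS, while its ligand HGF was at most 0.546 TPM in SHEP and ranged from 426 to 755 TPM (median 617) in SKNAS. AXL, the receptor of GAS6, was higher in SHEP like its ligand, from 104 to 221 TPM (median 125) in SHEP and 4.28 to 14.6 TPM (median 8.75) in SKNAS. ALK, the kinase often mutated in neuroblastoma, had means of 0.052 TPM in SHEP and 0.025 TPM in SKNAS, and PTK7 had a difference of 0.00 (SE 0.06).

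The remaining ligands went both ways, also within the TGF-beta family. TGFB2 ranged from 67.8 to 148 TPM (median 97.1) in SHEP and was at most 0.447 TPM in SKNAS, INHBA, an activin subunit, had medians of 53.01 and 0.134 TPM, and WNT5B, a non-canonical WNT ligand, 50.2 and 0.299 TPM. MDK, the heparin-binding factor midkine, ranged from 264 to 1286 TPM (median 419.5) in SKNAS and from 2.42 to 7.88 TPM (median 4.97) in SHEP, and SFRP1, a secreted WNT antagonist, had medians of 99.9 and 0.293 TPM. IGF2, the fetal insulin-like growth factor, ranged from 14.03 to 127 TPM (median 70.5) in SKNAS and was at most 0.27 TPM in SHEP. TGFB3 and BMP4, of the same family as TGFB2, were higher in SKNAS, with differences of -0.72 and -2.30. The TGFB3 difference lay near the threshold, and was not called in CT52 to CT76 (-0.35) or without SHEP replicate 1 (-0.63). TGFB1 and DKK1 did not pass the test, at -0.14 and -0.09.

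Collagen chains were divided between the lines. Of 21 tested, 9 were higher in SHEP and 9 in SKNAS, with a median of 0.16. COL1A1, the main chain of type I collagen, ranged from 1856 to 3172 TPM (median 2529) in SHEP and from 11.2 to 69.5 TPM (median 56.1) in SKNAS, while COL1A2, the partner chain of the usual trimer, had means of 0.147 and 0.089 TPM. COL12A1, which binds type I fibrils, ranged from 107 to 244 TPM (median 163) in SHEP and was at most 0.22 TPM in SKNAS. COL16A1 and COL4A2, a basement membrane chain, were also higher in SHEP by 4.55 and 4.19, while COL3A1, COL19A1 (-4.26) and the basement membrane chains COL4A6 (-1.91) and COL4A5 (-1.87) were higher in SKNAS. The small proteoglycans LUM and DCN, which bind collagen, ranged in SKNAS from 637 to 2431 TPM (median 1141) and from 110.2 to 315 TPM (median 207), and in SHEP reached at most 6.14 and 1.98 TPM. FN1, the fibronectin gene, ranged from 71.9 to 472 TPM (median 354) in SHEP and from 9.92 to 23.4 TPM (median 15.6) in SKNAS, and TAGLN, a smooth muscle actin-binding protein, had medians of 183 and 3.97 TPM. S100A4, a calcium-binding protein called fibroblast-specific protein, ran the other way with medians of 15.3 TPM in SHEP and 2420.3 TPM in SKNAS. Of 24 tested fibroblast and mesenchymal markers, 11 were thus higher in SHEP and 9 in SKNAS.

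Matrix proteases and inhibitors were higher in SHEP for 16 of 25 and in SKNAS for 4, with a median of 2.18. PLAU, the urokinase that activates plasminogen, ranged from 213 to 553 TPM (median 346) in SHEP and from 4.61 to 6.11 TPM (median 5.35) in SKNAS. TIMP3 had a median of 47.5 TPM in SHEP and was at most 0.115 TPM in SKNAS, while TIMP1, another metalloproteinase inhibitor, was higher in SKNAS (-1.73). YAP, TEAD and target genes were higher in SHEP for 18 of 24 and in SKNAS for 1, with a median of 1.43; F3, the tissue factor of coagulation, differed by 3.42 and MYOF by 2.32, and the exception was ANKRD1 at -0.94. Without the low-median libraries these counts were 17 and 3. Of 19 tested integrins 9 were higher in SHEP (47.4%) and 5 in SKNAS (26.3%), against 27.3% and 24.8% of all genes. ITGB3 had medians of 25.7 and 0.103 TPM and ITGA5, the fibronectin receptor chain, 360.4 and 41.8 TPM in SHEP and SKNAS, while ITGA8 and ITGA11 were near-silent in SHEP and had SKNAS medians of 24.8 and 22.5 TPM. Of 8 tested cadherins, CDH13 (3.57), CDH4 (3.12) and CDH3 (0.97) were higher in SHEP, and CDH11, CDH24, CDH18 and CDH10 in SKNAS, together with CDH2, the neural cadherin, whose difference of -0.67 lay at the threshold.

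Chemokines and genes of antigen processing were more often higher in SHEP. Of 24 tested chemokines and interleukins 17 were higher in SHEP and 1 in SKNAS, with a median of 2.08. Of the 24, 8 were detected in SHEP and near-silent in SKNAS and 1 the reverse, so the filter set their direction. IL32, an inflammatory cytokine, ranged from 660.1 to 1065 TPM (median 772) in SHEP and from 1.41 to 8.62 TPM (median 4.14) in SKNAS. CXCL5, a neutrophil chemokine, ranged from 19.98 to 41.5 TPM (median 33.95) in SHEP and was at most 0.0267 TPM in SKNAS, and ACKR3, a scavenging receptor of CXCL12, had a median of 82.7 TPM in SHEP. LIF, a cytokine of the interleukin-6 family, had medians of 41.997 and 0.639 TPM, and CX3CL1, the membrane-bound fractalkine, was the member higher in SKNAS (-3.20). Of 17 tested genes of MHC class I antigen presentation 8 were higher in SHEP and none in SKNAS. ERAP2, which trims peptides, ranged from 45.03 to 88.8 TPM (median 73.2) in SHEP and from 0.280 to 2.25 TPM (median 1.26) in SKNAS, TAPBP, the tapasin of the loading complex, differed by 1.81, and HLA-C by 1.96. B2M, the shared light chain, did not pass the test at 0.11, and HLA genes share reads among their alleles and copies, so their division is uncertain. Of 32 tested interferon-stimulated genes 13 were higher in SHEP (40.6%), led by MX2 (2.18) and IFITM2 (1.88). In SKNAS 7 were higher (21.9%, against 24.8% of all genes), led by IFI44 (-4.30) and RSAD2 (-1.51). Without the low-median libraries these counts were 11 and 4.

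Glucocorticoid and clock genes bear on the entrainment of the cells. Of 20 tested genes of the glucocorticoid receptor and its targets, 12 were higher in SHEP and 4 in SKNAS. TNFAIP3, an inhibitor of NF-kB, differed by 4.06 and ANGPTL4, a lipase inhibitor, by 3.08, both higher in SHEP, while PDK4, a mitochondrial kinase, and HSD11B1, which reactivates cortisol, were higher in SKNAS, with differences of -2.32 and -2.47. FKBP5, a standard glucocorticoid target, ranged from 8.04 to 58.4 TPM (median 45.2) in SHEP and from 7.74 to 74.4 TPM (median 52.3) in SKNAS over the time course and did not pass the test (-0.06). Of 19 tested clock genes 6 were higher in SHEP (31.6%) and 5 in SKNAS (26.3%), shares near the 27.3% and 24.8% of all genes, and without the low-median libraries the counts were 5 and 6. NPAS2, the paralog of CLOCK, ranged from 22.98 to 51.2 TPM (median 33.9) in SKNAS and from 0.138 to 1.97 TPM (median 0.780) in SHEP, whereas CLOCK itself was higher in SHEP with medians of 9.39 and 3.36 TPM. BHLHE40, a repressor of the clock, ranged from 72.9 to 159 TPM (median 97.8) in SHEP and from 1.24 to 7.85 TPM (median 5.22) in SKNAS, ARNTL2 differed by 2.44, RORB and RORA, activators in the clock loop, by -1.85 and -1.75, and CRY1 by -0.04 (SE 0.06).

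Retinoic acid genes, of interest because retinoids are given to patients with neuroblastoma, were divided. Of 15 tested, 7 were higher in SHEP and 5 in SKNAS, with a median of 0.56. Without the low-median libraries the split turned, with 5 higher in SHEP and 6 in SKNAS, and the median was 0.05. The carriers CRABP2 and CRABP1 were higher in SKNAS, with SKNAS medians of 1611 and 3.40 TPM and SHEP medians of 2.59 and 0 TPM. RARB, a receptor, ranged from 30.2 to 46.2 TPM (median 38.12) in SHEP and was at most 0.898 TPM in SKNAS, ALDH1A1, which makes retinoic acid, had a median of 29.04 TPM in SHEP and 0.0284 TPM in SKNAS, and CYP26B1, which degrades it, 5.22 TPM against 0 TPM. Of 18 tested Notch pathway genes 6 were higher in each line (33.3%), with a median of 0.04 against 0.01 over all genes. NOTCH2 and NOTCH1 (2.33) and HES4 (3.39) were higher in SHEP, and NOTCH3 and the effectors HEY1, HES1 (-3.56) and HEYL (-2.54) in SKNAS.

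Imprinted genes, which are expressed from the allele of 1 parent, were higher in SKNAS for 13 of 22 tested and in SHEP for 3, with a median of -0.82. NDN ranged from 37.03 to 98.6 TPM (median 45.7) in SKNAS, MEG3, a non-coding RNA, from 14.2 to 53.005 TPM (median 20.3), and both were listed at 0 in all 28 SHEP libraries. PEG10, derived from a retrotransposon, had medians of 152 TPM in SKNAS and 8.35 TPM in SHEP, while DIRAS3, a RAS-like growth suppressor, was higher in SHEP with 23.1 and 0.750 TPM. GNAS did not pass the test (0.09). Of 25 tested cancer-testis genes, germ cell genes active in many tumours, 19 were higher in SHEP and 5 in SKNAS, the latter led by CTAG1B (-5.74), MAGEC2 (-3.45) and CTAG2 (-1.73). CTAG1B and CTAG2 share sequence with near copies, and CTAG1B ranged widely in SKNAS, from 7.65 to 757 TPM (median 21.2).

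Genes of drug handling were among those with a line at 0. MGMT, which repairs alkylated guanine, ranged from 24.1 to 151 TPM (median 32.9) in SKNAS and was listed at 0 in all 28 SHEP libraries (difference -5.49, SE 0.16). ABCB1, the P-glycoprotein efflux pump, had medians of 8.19 TPM in SHEP and 0.332 TPM in SKNAS, and NNMT, the nicotinamide methyltransferase, 233 and 7.001 TPM. AKR1C2 and ALDH3A2 were higher in SKNAS, with differences of -3.43 and -1.71. In all, 12 of 23 tested drug transporters and detoxification genes were higher in SHEP (52.2%) and 6 in SKNAS (26.1%), against 27.3% and 24.8% of all genes.

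Ion channels, neuropeptides and receptors of neurotransmitters were higher in SKNAS for 16 of 24 tested and in SHEP for 7, with a median of -1.61. Of the 24, 7 were detected in SKNAS and near-silent in SHEP and 1 the reverse, so the filter set their direction. Besides VIP, NPY, the neuropeptide Y co-released with noradrenaline, ranged from 19.97 to 52.9 TPM (median 27.3) in SKNAS and was listed at 0 in SHEP. SCN9A, a sodium channel of sympathetic and sensory neurons, had medians of 47.5 TPM in SKNAS and 1.25 TPM in SHEP. GABRA3, a GABA receptor subunit, and HTR1D, a serotonin receptor, were higher in SHEP by 3.16 and 3.19, as were the mechanosensitive channels PIEZO1 (2.01) and PIEZO2 (3.02).

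Ribosomal and proteasome genes moved with the low-median libraries. Of 49 cytosolic ribosomal protein genes 14 were higher in SKNAS (28.6%) and 5 in SHEP (10.2%), with a median of -0.41. Of all genes 24.8% and 27.3% were so. Without the 4 low-median libraries the split turned, with 1 higher in SKNAS and 10 in SHEP, and the median was -0.02. Of 31 proteasome subunits 8 were higher in SKNAS (25.8%, near the 24.8% of all genes) and none in SHEP, and without the low-median libraries 2 and 1. Across the 14 SKNAS libraries RPL24, a large-subunit protein, ran from 1287 to 10234 TPM (median 1899), against 1205 to 1867 TPM (median 1381) in SHEP, and its difference of -0.86 was -0.30 and not called without the low-median libraries.

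Genes of some chromosomes were displaced as a group. The median difference was highest on chromosome 13 (0.70 over 256 tested genes) and lowest on chromosome 1 (-0.21 over 1589 genes), with chromosomes 22 (0.54), 4 (0.51) and 3 (0.31) next to chromosome 13. On chromosome 13, 51.6% of tested genes were higher in SHEP and 10.55% in SKNAS, against 27.3% and 24.8% over all genes. Without the low-median libraries the medians of chromosomes 13 and 1 were 0.71 and -0.25. Among stretches of 51 neighbouring tested genes, the highest median, 1.62, lay on chromosome 19 at GRCh38 positions 51688346 to 53990215, where 40 genes were higher in SHEP and 1 in SKNAS; this stretch is rich in KRAB zinc-finger genes. The lowest median, -1.03, lay on chromosome 3 at positions 180868141 to 187180908, where 31 genes were higher in SKNAS and 5 in SHEP. A stretch of chromosome 17 (16217191 to 19424357) had a median of -0.98 with 38 genes higher in SKNAS and 2 in SHEP. These are descriptions without a test, and the number of DNA copies was not measured here.

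**Figure D4:**
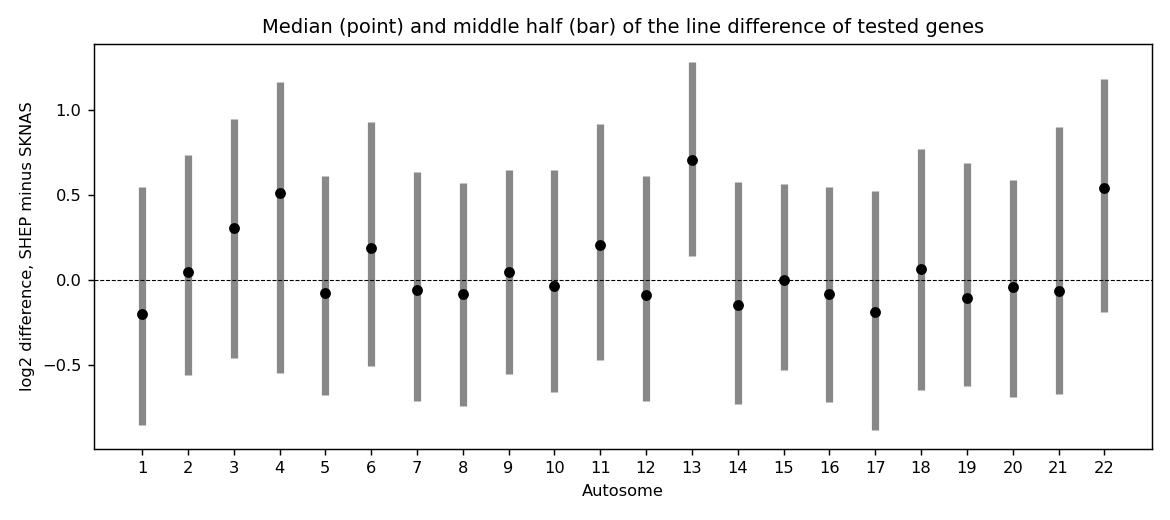
Line difference (SHEP minus SKNAS, log2 scale, y axis) of the tested genes of each autosome (x axis), with the median as a black point and the range from the lower to the upper quartile as a grey bar. Chromosomes 13, 22 and 4 have the highest medians (0.70, 0.54 and 0.51) and chromosome 1 the lowest (-0.21).

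Genes on in a single line were a small class. Besides the 429 genes detected in SHEP and near-silent in SKNAS, 464 genes (2.90% of those tested) were detected in SKNAS and near-silent in SHEP. Protein-coding genes made up 314 and 338 of them and long non-coding RNAs 78 and 102. Some were neighbours, counting tested genes in genome order. HOTAIRM1, HOXA2, HOXA3 and HOXA-AS2 lay in an unbroken run of SHEP genes, as did the chemokine genes CXCL1, CXCL5, CXCL3 and CXCL2 on chromosome 4 and the zinc-finger genes ZNF600, ZNF28, ZNF468 and ZNF320 on chromosome 19. Runs of SKNAS genes included IGF2, AC132217.1, C11orf21 and TSPAN32 on chromosome 11, and TMEM176B, TMEM176A and KCNH2 on chromosome 7. These runs were found after the values were seen and have no test.

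Promoters of the line-specific classes were compared for 2 motifs and for CpG content. RefSeq promoter windows of 300 bases, from 250 before to 50 after a transcript start (GRCh38.p14), were matched by symbol for 11038 tested genes with 16111 windows. TGANTCA, the AP-1 binding sequence, which reads the same on both strands, was present in 5.47% of these windows. It was present in 10.7% of the 382 windows of genes detected in SHEP and near-silent in SKNAS and in 5.18% of the 386 windows of genes detected in SKNAS and near-silent in SHEP. Over all 35116 windows of the table, tested or not, the share was 7.71%. For CACGTG, the E-box that MYC and clock factors bind, the shares were 7.07% and 5.44% in the same order, against 9.29% of windows of tested genes. The median ratio of observed to expected CpG was 0.65 in the SHEP class, 0.67 in the SKNAS class and 0.81 over all tested genes. A motif in a window is a description and not evidence of binding.

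The promoters printed here show where TGANTCA lies in the line-specific genes with the largest differences among those that hold it, leaving out chromosomes 8, X and Y. The motif is in capitals and each sequence runs 5′ to 3′ on the strand of the gene.
PERP (detected in SHEP, chr6:138107370-138107669, minus strand): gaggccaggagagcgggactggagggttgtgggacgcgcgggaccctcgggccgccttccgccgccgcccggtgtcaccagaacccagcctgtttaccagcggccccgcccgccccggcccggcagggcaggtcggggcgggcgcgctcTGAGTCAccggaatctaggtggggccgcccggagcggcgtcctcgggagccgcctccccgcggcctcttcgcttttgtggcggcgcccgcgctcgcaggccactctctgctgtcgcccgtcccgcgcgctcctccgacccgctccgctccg
DIO2 (detected in SHEP, chr14:80211455-80211754, minus strand): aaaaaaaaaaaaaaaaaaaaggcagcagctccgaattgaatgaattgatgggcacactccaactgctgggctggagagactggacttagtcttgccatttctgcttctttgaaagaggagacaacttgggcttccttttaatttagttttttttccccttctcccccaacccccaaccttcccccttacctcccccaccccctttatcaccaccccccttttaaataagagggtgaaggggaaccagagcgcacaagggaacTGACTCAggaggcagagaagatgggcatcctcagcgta
TRIML2 (detected in SHEP, chr4:188109554-188109853, minus strand): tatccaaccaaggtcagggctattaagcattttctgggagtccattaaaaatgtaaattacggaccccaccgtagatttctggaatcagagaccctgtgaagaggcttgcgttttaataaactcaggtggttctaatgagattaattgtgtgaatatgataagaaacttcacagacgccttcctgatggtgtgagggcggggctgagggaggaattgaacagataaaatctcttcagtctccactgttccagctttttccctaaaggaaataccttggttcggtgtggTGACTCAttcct
F2RL2 (detected in SHEP, chr5:76623354-76623653, minus strand): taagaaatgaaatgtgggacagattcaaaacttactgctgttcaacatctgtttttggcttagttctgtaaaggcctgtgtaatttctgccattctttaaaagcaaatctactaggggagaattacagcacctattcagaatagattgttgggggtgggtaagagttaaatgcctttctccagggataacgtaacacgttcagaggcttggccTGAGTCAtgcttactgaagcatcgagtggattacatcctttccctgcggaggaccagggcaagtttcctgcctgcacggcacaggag
CD36 (detected in SKNAS, chr7:80645999-80646298, plus strand): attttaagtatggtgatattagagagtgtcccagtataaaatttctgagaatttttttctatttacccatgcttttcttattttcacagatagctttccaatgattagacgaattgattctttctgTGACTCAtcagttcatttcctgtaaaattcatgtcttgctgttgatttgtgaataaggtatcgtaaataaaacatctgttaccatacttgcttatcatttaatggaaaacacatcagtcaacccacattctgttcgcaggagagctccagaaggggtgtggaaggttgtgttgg
PERP, a p53 target of cell junctions, ranged from 52.7 to 64.9 TPM (median 59.6) in SHEP and from 0 to 0.0127 TPM (median 0) in SKNAS, and its motif begins 101 bases before the start. F2RL2, a thrombin receptor, had medians of 38.5 and 0.0286 TPM with the motif 37 bases before the start. DIO2, which activates thyroid hormone, had medians of 66.9 and 0.367 TPM, and TRIML2, a tripartite-motif family member, 41.7 and 0 TPM, each with the motif after the start. CD36, a fatty acid transporter and thrombospondin receptor, ranged from 198 to 474 TPM (median 323) in SKNAS and from 0.0381 to 2.44 TPM (median 0.155) in SHEP, with the motif 124 bases before the start. These 5 genes were named by the motif after their values were seen.

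The line difference was largely present in the MYC-ON libraries, which the main contrast did not use. In a fit over all 83 libraries, 4797 of 16571 genes were higher in SHEP in MYC-ON (28.9%) and 4521 higher in SKNAS (27.3%). Of the 4371 genes higher in SHEP in MYC-OFF, 3723 were higher in SHEP in MYC-ON too (85.2% of the MYC-OFF list and 77.6% of the MYC-ON list) and 6 were higher in SKNAS. Of the 3960 genes higher in SKNAS, 3209 were so in MYC-ON (81.0% and 71.0% of the lists) and 7 were higher in SHEP. Of the 13 SKNAS MYC-ON libraries 10 had a low median, so the change of the line difference cannot be told apart from that of the libraries.

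The line difference changed with N-MYC-ER activation in 1550 genes towards SHEP (9.35% of those tested) and in 1457 towards SKNAS (8.79%), by an interaction term in limma. These counts were 1455 and 850 without the low-median SKNAS libraries and 2745 and 815 with TPM as deposited. The change was positive for RET: SKNAS had a mean of 86.7 TPM without activation and 8.50 TPM with it, and SHEP was near 0 under both, so that the difference in this fit over all libraries went from -6.37 to -3.22. CRH followed the same course, from 1181 to 107 TPM in SKNAS. NPW, the neuropeptide W, had SKNAS means of 11.1 TPM in MYC-OFF and 1161 TPM in MYC-ON, against 0.995 and 1.22 TPM in SHEP. JAG2, a Notch ligand, went from 1.21 to 87.6 TPM in SKNAS and from 0.146 to 0.236 TPM in SHEP. The non-coding RNA FAM222A-AS1 had SHEP means of 0.0801 TPM in MYC-OFF and 25.8 TPM in MYC-ON, and SKNAS means of 0.942 and 0.0300 TPM.

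**Figure D5:**
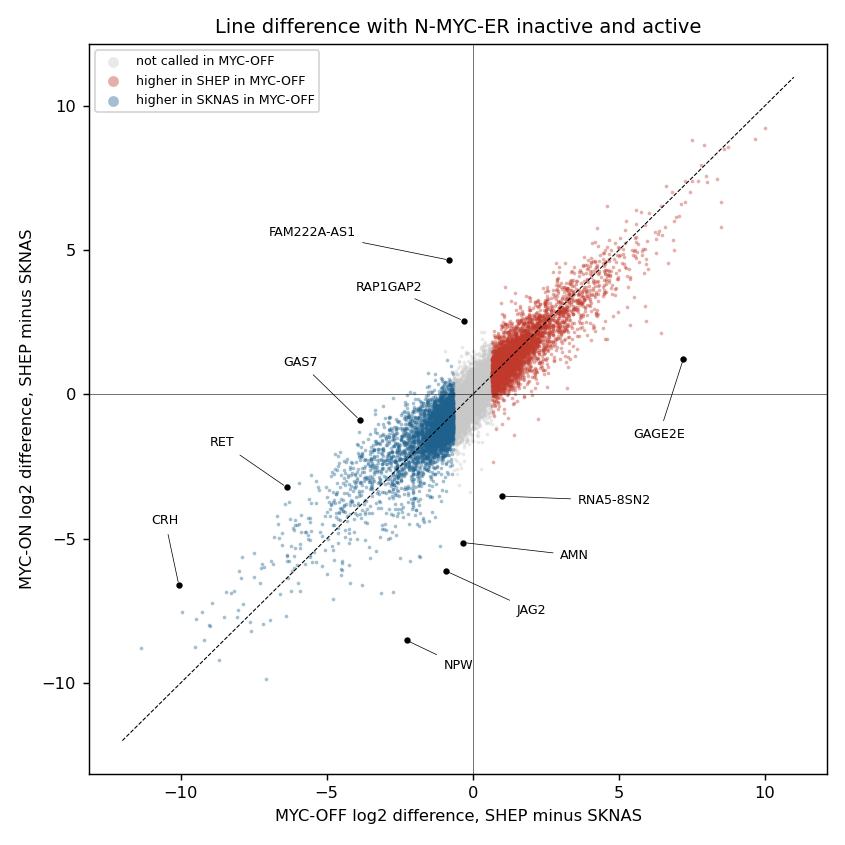
Line difference of each tested gene in MYC-OFF (x axis) and MYC-ON (y axis), both SHEP minus SKNAS on the log2(rescaled TPM + 1) scale, coloured by the MYC-OFF call. Most genes lie along the dashed line of equal differences, and black points mark the 5 genes in each direction with the largest change, among them RET and CRH above the line and NPW and JAG2 below it.

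Within the MYC-OFF time courses the line difference had a slope over CT in 4167 genes, rising in 2018 (12.6% of those tested) and falling in 2149 (13.4%). The 4 low-median SKNAS libraries all lay at CT52 or later, and without them 329 rose and 448 fell. Of the genes called over all CTs, 3859 of 4371 were higher in SHEP at each of the 14 CTs and 3184 of 3960 were higher in SKNAS at each. The genes were called from these same libraries, so part of this agreement follows from the selection.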

How the data were processed

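Poly-A RNA was sequenced from both lines, and the authors quantified reads with Salmon 1.3.0 against Gencode transcripts of GRCh38 and summed them to genes with Tximport. The deposited values are TPM, 1 column per library, for 60237 genes; TPM keep no read depth, so the number of libraries and not counting error sets the precision given here. Libraries were rescaled by the median of ratios over 13305 genes, and log2(TPM + 1) was fitted in limma 3.58.1 (R 4.3.3) with line and CT as terms over the 42 MYC-OFF libraries. Genes needed a mean of at least 1 TPM in either line. The interaction with N-MYC-ER activation was fitted over all 83 libraries, and the slope of the line difference over CT within MYC-OFF. P-values were adjusted by the Benjamini-Hochberg method over all genes tested. The main limma fit was tested on simulated data, which had the spread of the SHEP libraries, no low-median libraries and no difference between series.

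SHEP series were taken as biological replicates per the labels, and time points of a series come from 1 experiment, so p-values measure the spread between these libraries. Another SKNAS series was not analysed here. SKNAS libraries whose median was under 3.8 on the log2 scale are called low-median. The comparison, its 32 gene lists and the low-median threshold were chosen with earlier results of these data known. The genes named were MYCN, MYC and MYCL, the 12 non-overlapping genes with the largest difference in each direction, the tested adrenergic and mesenchymal factors, up to 4 members of each list in each direction and up to 2 nearest to 0, and the 5 genes in each direction with the largest change on activation. Y-linked, XIST and mitochondrially encoded genes were left out of the largest differences. Genes named otherwise, among them MTAP, TGFB3, BMP4, the neighbouring runs and the printed promoters, were chosen after their values were seen. Symbols came from the deposited table, where 961 were repeated, and coordinates from the Gencode annotation of GRCh38, which matched 15948 of 15993 tested genes. Alternatives were another scaling, the library median as a covariate, pseudocounts of 0.1 and 5, filters, time windows, no CT term, series means, and leaving out each SHEP series or the low-median libraries. List counts without the low-median libraries were added after seeing the data. Some genes that the rule names are not reported here and not drawn, and the counts of their lists include them.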

Additional observations from a re-analysis of the deposited data

Results flagged for a closer look

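The line difference was not the same in MYC-OFF and MYC-ON for 1550 genes that moved towards SHEP and 1457 that moved towards SKNAS, by the interaction term in limma. The largest positive changes, as MYC-ON minus MYC-OFF on the log2(TPM + 1) scale, were 5.45 for FAM222A-AS1, 3.44 for CRH, 3.15 for RET, 2.97 for GAS7 and 2.85 for RAP1GAP2. The largest negative changes were -6.26 for NPW, -5.97 for GAGE2E, -5.21 for JAG2, -4.80 for AMN and -4.53 for RNA5-8SN2. GAGE2E and RNA5-8SN2 share reads with near-identical copies. Without the low-median SKNAS libraries 9 of these 10 changes were still called, from -7.66 to 5.72, and that of RNA5-8SN2 was -0.35 (adjusted p = 0.93, limma). That fit leaves out 10 of the 13 SKNAS MYC-ON libraries, so it rests on few of them.

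The line difference also changed over CT, with a rising slope in 2018 genes and a falling slope in 2149. The 4 low-median SKNAS libraries fall in the later CTs of the course. Without them the slope rose in 329 genes and fell in 448.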

How the results depend on the processing

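Counts of genes called between the lines stayed within 1.5 times the main count under all but 1 alternative: a pseudocount of 5 gave 2792 genes higher in SHEP and 2617 higher in SKNAS. Leaving out each SHEP series gave 4351 to 4456 genes higher in SHEP, 3789 to 3978 higher in SKNAS, 425 to 438 detected in SHEP alone and 447 to 449 detected in SKNAS alone. SHEP made up 52.5% of calls, and 60.1% with TPM as deposited (4977 and 3305 genes), where the median of all genes moved to 0.15. Of the 251 genes named, 228 kept their call, or stayed uncalled, under every one of the 13 alternatives that gave them a value. No named gene was called in the opposite direction, and 21 had no value under the filter of 5 TPM. A change of sign in a gene that was not called is not counted here, as for MYCN (-0.34) and GNAS (-0.07) without the low-median libraries. MYCN was called in CT52 to CT76 (1.43), STAT3 was not without the low-median libraries (0.58), and RPL24 neither (-0.30).

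The interaction with N-MYC-ER activation gave 2745 and 815 genes with TPM as deposited, and 850 genes towards SKNAS without the low-median libraries. The slope over CT gave 5474 rising and 577 falling genes with TPM as deposited, 158 and 203 with the library median as covariate, and 329 and 448 without the low-median libraries, which leaves fewer late SKNAS time points. The cause was not tested. No paired analysis was possible because the SKNAS libraries carry no replicate number shared with a SHEP series. With 1 SKNAS series, cell line and experiment cannot be told apart, and TPM do not give the depth of each library.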
